A study of Mus musculus with 8 samples.

Results

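Annexins and S100 proteins are small calcium-binding proteins, and 10 genes of these families were followed in mouse liver RNA, out of 22225 genes with a usable probe. The 10 genes were the annexins Anxa1, Anxa2, Anxa3, Anxa5 and Anxa7 and the S100 genes S100a4, S100a6, S100a10, S100a11 and S100g. They were found as every non-control probe whose gene name, or whose gene by accession, was 1 of these 10, which gave 13 probes of 41174 on the array. The genes had been picked because Anxa3 and S100g were much higher after Adeno-Cux2 treatment. Their values in the 3 adenovirus comparisons are therefore a description without a test, and only the untreated comparison was tested for them. All 10 genes had a kept probe, so none was lost to the filter on dim probes.

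Annexins bind acidic phospholipids in the presence of calcium and take part in membrane repair, vesicle traffic and inflammation. Most S100 proteins are dimers of small EF-hand subunits that change shape on binding calcium and then attach to target proteins, among them certain annexins. In the liver, annexin A2 and its S100 partner are associated with bile duct cells, regenerating tissue and cells of the sinusoids more than with resting hepatocytes. S100g encodes calbindin-D9k, a cytosolic calcium buffer best known from intestine, uterus and placenta, where vitamin D and oestrogen control it.

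The livers came from 8-week-old ICR scid mice, whose scid mutation blocks the making of B and T cells and leaves myeloid cells in place. Each of 8 two-colour arrays compared 2 pools of RNA, and each of 4 comparisons had 2 arrays that carried separate pools with the dyes reversed. Untreated males (10 mice) were set over untreated females (10 mice). Adeno-Cux2, an adenovirus carrying the transcription factor Cux2, was set over the control adenovirus Adeno-CMV in males 5 days after treatment (12 and 13 mice), females 5 days after (8 and 7 mice) and males 3 days after (11 and 11 mice). All treated mice, controls included, had received an adenovirus. Pools held 3 to 7 mice, so each comparison has n = 2 arrays, the spread between single mice is not seen, and p-values measure the spread between pools. The design text gives 11 untreated females where the sample labels give 10, and the female arrays carry a stated purpose that names males.

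A check of the labels used Cux2 itself. Its log2 ratio was 0.60 ± 0.09 in males at day 5 and 0.49 ± 0.09 in males at day 3, but −0.61 ± 0.09 in females at day 5 (± standard error of the limma model, n = 2 arrays, adjusted p = 0.0043, 0.0044 and 0.0045). The female pools are therefore called the pools labelled Adeno-Cux2. In the same order, these calls were lost under 4, 3 and 4 of 19 other settings, and no sign changed. The ratio ran from 0.17 to 1.77, from 0.13 to 1.46 and from −0.92 to −0.28 over those settings. In untreated mice, which had no virus, Cux2 was lower in males than in females (−1.88 ± 0.09, limma adjusted p = 0.000183). The share of the mice's own Cux2 in the female ratio after treatment was not tested. Whether the Cux2 probe lies in the part of the gene that the virus carries is not stated, so the probe may not report the transgene. Spots well above background made up 68.2% to 80.1% of each channel. Every probe of the 10 genes that was used was well above background in all 16 pools, except S100g in 1 pool of untreated males, and none was saturated. A ratio from liver RNA cannot tell more cells of a type from more RNA per cell.

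Because most of these genes were higher together, the bases upstream of their starts are shown for 5 of them, read from RefSeq's promoter table on GRCm38.p6. The table held 9 promoters for 8 of the 10 genes, and Anxa3 and S100a10 were not in it. In the 250 bases before each start, 7 short motifs were searched on both strands, and capitals mark the matches. The motifs were TATAAA (the TATA box), CCAAT (the CCAAT box), the sequence GGGCGG (the GC box), TGANTCA (the AP-1 site), ATCGAT with its variant ATCAAT (sequences that Cux proteins can bind) and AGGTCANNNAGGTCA (the spaced repeat read by the vitamin D receptor). Anxa2, at chr9:69453433-69453682 on the plus strand, is shown because its window holds a TATA box, GC boxes and an AP-1 motif. S100a11, at chr3:93520246-93520495 on the plus strand, also holds AP-1 motifs and GC boxes. S100a4, at chr3:90603520-90603769 on the plus strand, has a TATA box as its only match. S100g, at chrX:162964600-162964849 on the minus strand, has no match. Anxa7, at chr14:20480134-20480383 on the minus strand, is the gene whose ratios stayed near 0, and the window before the farther upstream of its 2 listed starts is shown. The window of its other start, chr14:20479942-20480191, overlaps that one and holds 4 GC boxes.
Anxa2: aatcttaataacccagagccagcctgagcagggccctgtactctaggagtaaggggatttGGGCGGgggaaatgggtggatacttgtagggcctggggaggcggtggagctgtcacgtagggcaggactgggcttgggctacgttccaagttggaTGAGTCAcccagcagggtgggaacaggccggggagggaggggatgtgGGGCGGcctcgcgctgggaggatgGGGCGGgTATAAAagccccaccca
S100a11: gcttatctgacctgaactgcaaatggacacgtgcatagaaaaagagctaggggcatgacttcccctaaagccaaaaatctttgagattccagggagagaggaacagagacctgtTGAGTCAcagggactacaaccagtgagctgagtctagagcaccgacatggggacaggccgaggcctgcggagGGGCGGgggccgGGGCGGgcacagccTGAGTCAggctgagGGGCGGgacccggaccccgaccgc
S100a4: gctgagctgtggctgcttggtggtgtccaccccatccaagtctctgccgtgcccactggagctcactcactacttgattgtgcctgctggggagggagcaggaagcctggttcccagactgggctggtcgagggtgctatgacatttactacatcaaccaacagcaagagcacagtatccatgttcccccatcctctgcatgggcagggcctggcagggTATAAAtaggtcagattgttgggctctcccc
S100g: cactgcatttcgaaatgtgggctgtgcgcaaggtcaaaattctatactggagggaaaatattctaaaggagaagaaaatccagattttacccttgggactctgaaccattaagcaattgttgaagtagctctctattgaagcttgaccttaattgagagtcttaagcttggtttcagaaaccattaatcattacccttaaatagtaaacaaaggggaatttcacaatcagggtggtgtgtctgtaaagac
Anxa7: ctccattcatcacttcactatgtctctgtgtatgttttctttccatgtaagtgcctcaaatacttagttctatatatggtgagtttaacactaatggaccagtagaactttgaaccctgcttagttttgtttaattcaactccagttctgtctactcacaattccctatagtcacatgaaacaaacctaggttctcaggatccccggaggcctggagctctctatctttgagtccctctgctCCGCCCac

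The AP-1 motif was found in Anxa2, 95 bases before the start, and in S100a11, 136 and 38 bases before it, against 6.75% of all 32851 promoters. The TATA box was found in Anxa1, Anxa2 and S100a4, at 32, 17 and 31 bases before the start, against 12.4% of all promoters. GC boxes were found in Anxa2, Anxa7 and S100a11 (32.7% of all promoters), and CCAAT in S100a6 (33.8%). Neither Cux motif was found in any of the 8 genes, against 0.728% of all promoters for ATCGAT and 6.72% for ATCAAT. The vitamin D repeat was found in none either, and 0.00609% of all promoters hold it. A match is a run of letters and not a shown binding site, and a missing match says only that these letters are not in the window.

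Of the 10 genes, 9 had ratios above 0 on all 6 adenovirus arrays, that is, were higher in the pools labelled Adeno-Cux2 than in their controls. Anxa7 was the other gene. Since the genes were picked on these comparisons, this is a description and nothing is read from it. The share of all genes above 0 on all 6 arrays was not counted. The median log2 ratio of the 10 genes was 2.67 in males at day 3, 1.73 in males at day 5 and 1.32 in females at day 5. The median over all genes was within 0.01 of 0 in each of these comparisons.

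**Figure D1:**
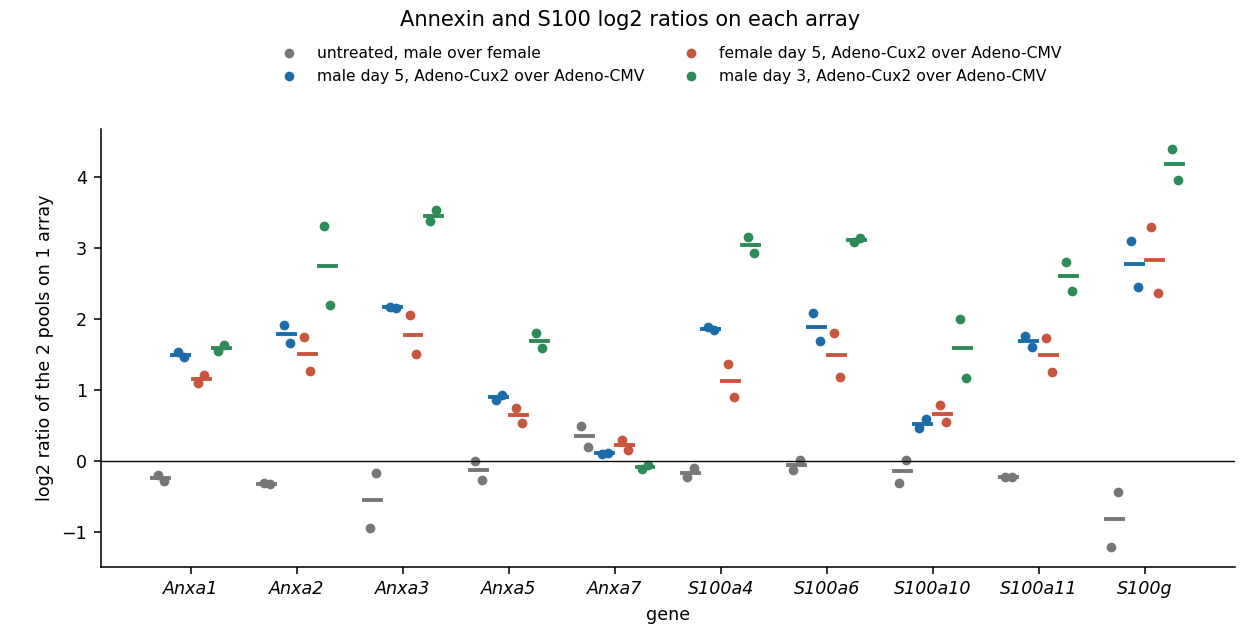
Log2 ratio of the 10 genes (x axis) on each of the 8 arrays (points) with the mean of each comparison (short lines), coloured by comparison; positive values are higher in males or in the Adeno-Cux2 pools. Of the 10 genes, 9 lie above 0 on all 6 adenovirus arrays, a pattern that was not counted over all genes. S100g reaches 4.40, and Anxa7 lies between −0.11 and 0.29 on those arrays.

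Among the annexins, Anxa3 had the highest mean ratio in all 3 adenovirus comparisons. Anxa3 encodes annexin A3, a membrane-binding protein that is abundant in neutrophils. On male day 5 arrays its log2 ratio was 2.17 on array 1 and 2.16 on array 2, a mean of 2.17 ± 0.19 (SE, n = 2 arrays) or 4.49-fold. In females at day 5 the arrays gave 2.05 and 1.51, a mean of 1.78 or 3.43-fold. At day 3 the male arrays gave 3.38 and 3.53, a mean of 3.46 or 10.98-fold. Both day 3 arrays lay above all 4 day 5 arrays. This probe lies at chr5:97086067-97086126 on mm8, the build of the array's annotation. A second Anxa3 probe, from a cDNA at chr5:97040268-97040327, was not well above background often enough to be kept, and its ratios lay between −0.16 and 0.13.

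In normalised intensity, which compares pools for 1 probe but not 1 probe with another, Anxa3 formed a high group and a low group of pools. Its log2 level was 14.06 ± 0.08 (SD, n = 2 pools) in Adeno-Cux2 males at day 3, 13.01 ± 0.30 in the female pools labelled Adeno-Cux2 and 12.76 ± 0.06 in Adeno-Cux2 males at day 5. It was 11.23 ± 0.08 in Adeno-CMV females, 10.97 ± 0.11 in untreated females, 10.60 ± 0.02 in Adeno-CMV males at day 3, 10.59 ± 0.05 in Adeno-CMV males at day 5 and 10.42 ± 0.43 in untreated males. The lowest pool labelled Adeno-Cux2, at 12.72, was above the highest of the other pools, at 11.29. Pools of different comparisons were on different arrays, and Anxa3 was picked for its rise, so this is a description and was not tested. The female pools labelled Adeno-Cux2 and the Adeno-Cux2 males at day 5 lay within 1 SD of each other, as did the 2 male Adeno-CMV groups and the untreated males.

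Anxa2 encodes annexin A2, which links membranes to actin and, at the cell surface, binds plasminogen and its tissue activator. Its log2 ratios were 1.91 and 1.66 in males at day 5 (mean 1.79 ± 0.17, 3.45-fold) and 1.75 and 1.26 in females (mean 1.51, 2.84-fold). At day 3 in males they were 3.31 and 2.19 (mean 2.75, 6.72-fold), so the 2 day 3 arrays differed more than those of any other annexin here. A second Anxa2 probe gave 1.96 on both male day 5 arrays, 1.91 and 1.39 in females, and 3.31 and 2.79 in males at day 3, in the same direction as the first on every array.

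Anxa1 encodes annexin A1, which holds back inflammation through formyl peptide receptors. Its log2 ratios were 1.53 and 1.46 in males at day 5 (mean 1.50 ± 0.07, 2.82-fold), 1.10 and 1.20 in females (mean 1.15, 2.22-fold), and 1.55 and 1.63 in males at day 3 (mean 1.59, 3.01-fold). The male means of day 3 and day 5 lay 0.09 apart, the smallest gap among the 9 genes that were higher at both times. Anxa5 encodes annexin A5, the phosphatidylserine-binding protein used to stain dying cells. Its ratios were 0.86 and 0.93 in males at day 5 (mean 0.90 ± 0.08, 1.86-fold), 0.75 and 0.53 in females (mean 0.64, 1.56-fold), and 1.80 and 1.58 in males at day 3 (mean 1.69, 3.23-fold).

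Anxa7 encodes annexin A7, a membrane-fusing annexin once called synexin, and it was the exception. Its log2 ratio was 0.10 on both arrays of males at day 5, 0.29 and 0.16 in females, and −0.11 and −0.06 in males at day 3. A second Anxa7 probe gave 0.28 and 0.24, 0.38 and 0.07, and 0.11 and 0.60 in the same order. The sign in males at day 3 thus differed between the probes, and no direction is given for it.

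S100g had the highest mean ratio of all 10 genes in each adenovirus comparison. Its log2 ratios were 3.10 and 2.45 in males at day 5, a mean of 2.77 ± 0.26 or 6.83-fold. In females at day 5 they were 3.30 and 2.36, a mean of 2.83 or 7.11-fold in the pools labelled Adeno-Cux2. At day 3 in males they were 4.40 and 3.97, a mean of 4.18 or 18.2-fold. The male and female arrays of day 5 overlapped, while both day 3 arrays lay above all 4 of them. The probe lies on the minus strand at chrX:158306205-158306264 on mm8.

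S100g was near the limit of detection in untreated liver and not in any virus-treated pool. Its log2 level was 6.20 ± 0.02 (SD, n = 2 pools) in untreated males, where 1 pool was not well above background, and 7.03 ± 0.53 in untreated females. The Adeno-CMV pools stood at 8.01 ± 0.22 in males at day 5, 8.50 ± 0.08 in males at day 3 and 8.54 ± 0.03 in females. The Adeno-Cux2 pools stood at 10.78 ± 0.24, 12.69 ± 0.22 and, in the female pools so labelled, 11.37 ± 0.70. The highest untreated pool, at 7.40, was below the lowest Adeno-CMV pool, at 7.86, but these pools were on different arrays and the difference was not tested. The 2 day 5 groups labelled Adeno-Cux2 lay within 1 SD of each other, as did Adeno-CMV males at day 3 and Adeno-CMV females.

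**Figure D2:**
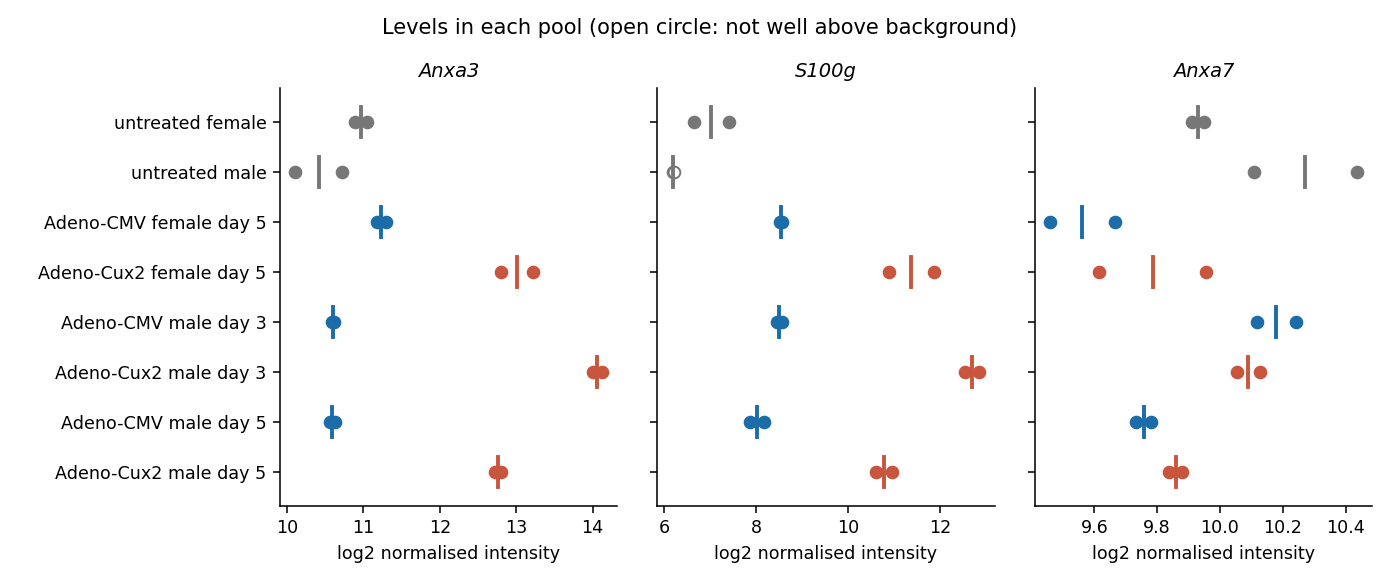
Log2 normalised intensity (x axis) of Anxa3, S100g and Anxa7 in each of the 16 pools (points; open where not well above background) with the mean of each pool group (bars); the scale differs between panels. The 6 pools labelled Adeno-Cux2 lie at or above 12.72 for Anxa3 and 10.61 for S100g, above the other 10 pools. For Anxa7 they lie among them. These 6 include the female ones, whose Cux2 was lower. Pools of different comparisons were on different arrays, and Anxa3 and S100g were picked for their rise.

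S100a4, S100a6 and S100a11 formed a middle group. S100a4 encodes a protein of motile fibroblast-like cells and macrophages that binds non-muscle myosin. Its log2 ratios were 1.88 and 1.84 in males at day 5 (mean 1.86 ± 0.10, 3.63-fold), 1.36 and 0.89 in females (mean 1.13, 2.18-fold), and 3.16 and 2.94 in males at day 3 (mean 3.05, 8.26-fold). Both male day 5 arrays lay above both female arrays. S100a6 encodes calcyclin, which binds the calcyclin-binding protein Cacybp. Its ratios were 2.08 and 1.69 in males at day 5 (mean 1.89, 3.70-fold), 1.80 and 1.17 in females (mean 1.49, 2.81-fold), and 3.08 and 3.15 in males at day 3 (mean 3.12, 8.66-fold).

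S100a11 encodes calgizzarin, a partner of annexin A1. Its ratios were 1.77 and 1.60 in males at day 5 (mean 1.68, 3.21-fold), 1.73 and 1.25 in females (mean 1.49, 2.81-fold), and 2.81 and 2.39 in males at day 3 (mean 2.60, 6.06-fold). A probe for a calgizzarin-like locus, LOC670046, overlaps the S100a11 probe on mm8, at chr3:93611501-93611559. Its ratios were 1.83 and 1.73, 1.83 and 1.27, and 2.84 and 2.49 in the same order. Which of the 2 transcripts either probe reports cannot be told apart.

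S100a10 encodes p11, the S100 chain that pairs with annexin A2. It had the lowest ratios of the S100 members, at 0.46 and 0.58 in males at day 5 (mean 0.52 ± 0.18, 1.44-fold). They were 0.78 and 0.55 in females (mean 0.67, 1.59-fold) and 2.00 and 1.17 in males at day 3 (mean 1.58, 3.00-fold). On each of the 6 adenovirus arrays the ratio of Anxa2 exceeded that of S100a10.

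For 9 of the 10 genes, all but Anxa7, both male arrays of day 3 lay above both male arrays of day 5. The same holds for 26.8% of all genes with values on these arrays, and the difference was not tested because the genes were picked on these ratios. The gap of the means ran from 0.09 for Anxa1 to 1.41 for S100g. Male against female ratios at day 5 were closer. Both male arrays lay above both female arrays for 4 genes (Anxa1, Anxa3, Anxa5 and S100a4; 23.7% of all genes), and below them for the Anxa7 probe used (17.9% of all genes), while the second Anxa7 probe overlapped between the sexes. The arrays of these comparisons were on different slides, so the slide cannot be told apart from the time or the sex.

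**Figure D3:**
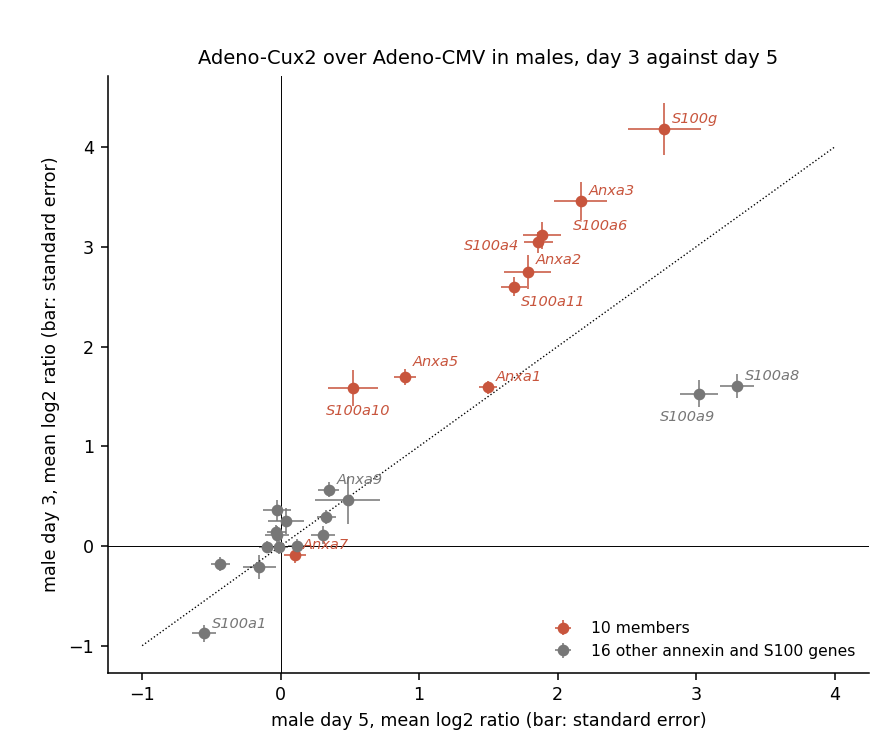
Mean log2 ratio of Adeno-Cux2 over Adeno-CMV in males at day 3 (y axis) against day 5 (x axis), with standard errors, for the 10 genes (red) and 16 other annexin and S100 genes (grey); the dotted line marks equal ratios. Of the 10 genes, 9 lie above the line, from Anxa1 at 1.50 and 1.59 to S100g at 2.77 and 4.18, while S100a8 and S100a9 lie below it.

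The untreated comparison was not the stated ground for picking the genes. Earlier results of these data were known, however, so its test may not be independent of the choice. In untreated mice only Anxa7 differed between the sexes at an adjusted p under 0.05. It was higher in males by 0.34 ± 0.08 on the log2 scale (0.49 and 0.20 on the 2 arrays, 1.27-fold, limma adjusted p = 0.0406, n = 2 arrays). That is 1 gene of 10, where 4.93% of all genes were higher in males and 11.1% differed in either direction. The call was lost under 15 of 19 other settings, among them the removal of any single array except replicate 2 of the untreated pair. The second Anxa7 probe gave 0.03 and 0.04.

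The other 9 genes did not pass the test. S100g had the lowest ratio, −1.22 and −0.44 on the 2 arrays (−0.83 ± 0.26, limma adjusted p = 0.095). On array 2 its male pool was not well above background, so that ratio is not exact, and the mean ran from −2.56 to −0.10 over 18 other settings. Anxa3 had −0.94 and −0.17 (−0.56 ± 0.19, limma adjusted p = 0.116). For both genes 1 array carried most of the difference. Anxa1 had −0.20 and −0.29 (−0.24 ± 0.07, limma adjusted p = 0.0686) and Anxa2 had −0.32 and −0.33 (−0.33 ± 0.17, limma adjusted p = 0.262). The remaining genes, Anxa5, S100a4, S100a6, S100a10 and S100a11, had means between −0.23 and −0.06. In all, 6 of the 10 genes were below 0 on both arrays, and the median was −0.20 against −0.01 over all genes. The share of all genes below 0 on both arrays was not counted.

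Of 18 other annexin and S100 genes, 16 had a kept probe, and S100a7a and S100z had none. In limma, 4 rose and 2 fell in males at day 5, 4 rose and 1 fell in females at day 5, and 5 rose and 1 fell in males at day 3. Their median log2 ratios were 0.01, 0.04 and 0.12, close to those of all genes. Among all genes 13.9%, 12.8% and 23.7% rose and 4.95%, 6.3% and 20.3% fell in these comparisons.

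The 2 with the largest rises were S100a8 and S100a9, which encode the chains of calprotectin, the main cytosolic protein of neutrophils. S100a8 had ratios of 3.39 and 3.20 in males at day 5 (3.30 ± 0.12, limma adjusted p = 7.36e-05), 1.57 and 2.15 in females (1.86 ± 0.12, limma adjusted p = 0.000357), and 1.49 and 1.71 in males at day 3 (1.60 ± 0.12, limma adjusted p = 0.00011). S100a9 had 3.16 and 2.88 (3.02 ± 0.14), 1.46 and 2.01 (1.74 ± 0.14), and 1.34 and 1.71 (1.53 ± 0.14). Their order of times was the reverse of that of the 9 genes. The male ratio at day 5 exceeded that at day 3 by 1.69 ± 0.17 for S100a8 (limma adjusted p = 0.00391) and by 1.49 ± 0.19 for S100a9 (limma adjusted p = 0.00672), and 8.11% of all genes were called in that direction (4.83% in the other). The female ratio of S100a8 at day 5 differed from the male one by −1.44 ± 0.17 (limma adjusted p = 0.0492, against 0.171% of all genes called lower). That call was lost when any single array other than replicate 2 of the female day 5 comparison was left out.

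S100a1, whose protein tunes calcium release in muscle, fell in all 3 adenovirus comparisons, with ratios of −0.55 ± 0.09 in males at day 5, −0.47 ± 0.09 in females and −0.88 ± 0.09 in males at day 3 (limma adjusted p = 0.00549, 0.0116 and 0.000311). S100a13 fell in males at day 5 (−0.44 ± 0.07, limma adjusted p = 0.00594). Anxa6, a large annexin with a duplicated core, rose by 0.33 ± 0.07, 0.30 ± 0.07 and 0.29 ± 0.07, and Anxa9 by 0.35, 0.28 and 0.56 ± 0.07, each with both arrays above 0. The female calls were lost under 9 of 19 other settings for Anxa6 and 13 for Anxa9. A second Anxa6 probe gave smaller means of 0.17, 0.01 and 0.21 in the same order. Its female arrays differed in sign, at 0.16 and −0.14, and its mean in untreated mice was −0.16. S100a14 rose in males at day 3 (0.16 and 0.56, mean 0.36 ± 0.10) and did not pass the test at day 5. It was dim, with 1 control pool at day 3 not well above background, its value ran from 0.09 to 1.81 over 18 other settings, and the call was lost under 4. In untreated mice 4 of the 16 were lower in males: S100a9 (−1.04 ± 0.14), S100a8 (−0.93 ± 0.12), S100a13 (−0.32 ± 0.07) and Anxa6 (−0.31 ± 0.07), where 6.14% of all genes were lower. The S100a13 call was lost under 10 of 19 other settings and the Anxa6 call under 16. With either male day 5 array left out there were 2 calls for males at day 5, 3 for females and 2 for untreated mice. Leaving out a female array gave 2 or 3 calls for females, leaving out a male day 3 array gave 2 for untreated mice, and leaving out replicate 1 of the untreated arrays gave 0 there.

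Most S100 genes lie in a cluster on chromosome 3, and the ratios varied along it. The probes run along mm8 in the order S100a1, S100a13, S100a14, S100a16, S100a3, S100a4, S100a5, S100a6, S100a8 and S100a9, with S100a11 and S100a10 farther on. S100a4 (chr3:90691847-90691907) and S100a6 (chr3:90700165-90700224) have S100a5 between them at chr3:90697496-90697555. In males at day 3, S100a4 had a mean of 3.05 and S100a6 of 3.12, and S100a3, next to S100a4 at chr3:90688401-90688460, had 0.11 and 0.17. S100a3 was well above background in every pool. S100a5 was not well above background in any male day 3 pool or female day 5 pool, so its ratios there give no measure of change. S100g lies on chromosome X, away from the cluster.

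**Figure D4:**
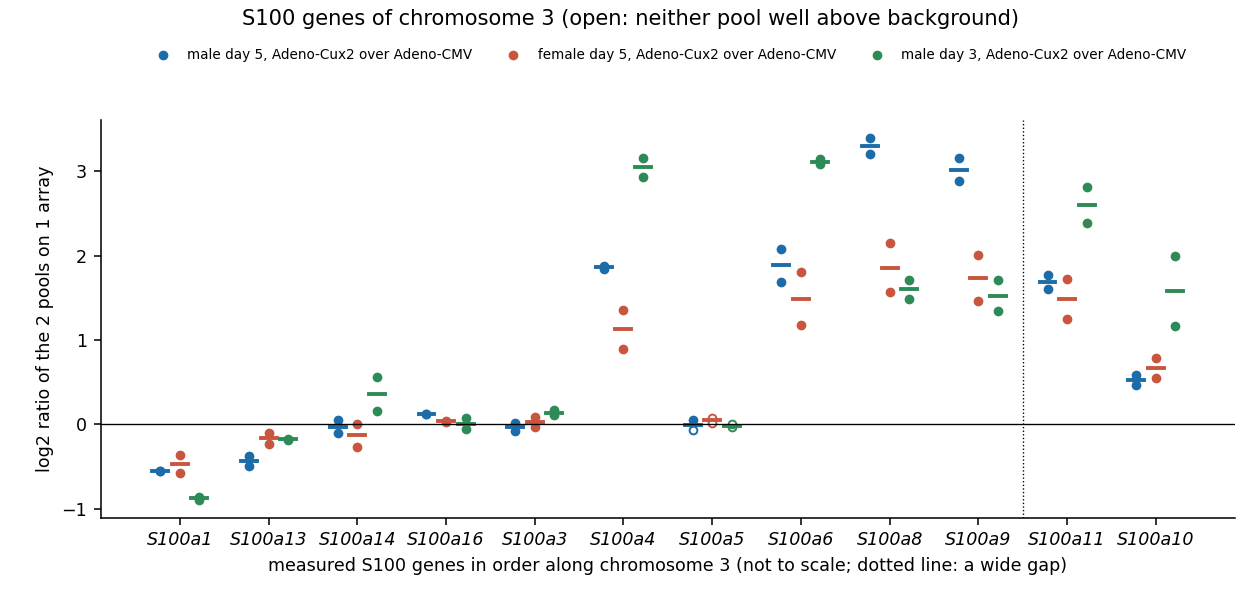
Log2 ratio of Adeno-Cux2 over Adeno-CMV (y axis) for the 12 measured S100 genes of chromosome 3 in map order (x axis, not to scale), with points for arrays and lines for means, coloured by comparison. Open points mark arrays on which neither pool was well above background, which holds for most S100a5 points; S100a4 and S100a6 lie at or above 0.89 on every array, and S100a3 lies between −0.08 and 0.17.

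A list of 18 partners of these proteins, of which 16 were measured, held ligands, targets and the plasminogen system that annexin A2 binds. In limma 9 rose and 1 fell in males at day 5, 8 rose and 1 fell in females, and 7 rose and 3 fell in males at day 3. The medians were 0.38, 0.29 and 0.10. Of all genes 13.9%, 12.8% and 23.7% rose and 4.95%, 6.3% and 20.3% fell in the same order. Plat, the tissue plasminogen activator, had ratios of 2.96 and 2.67 in males at day 5 (2.81 ± 0.27, limma adjusted p = 0.00072), 2.89 and 1.01 in females (1.95 ± 0.27, limma adjusted p = 0.00398) and 3.76 and 3.29 in males at day 3 (3.53 ± 0.27, limma adjusted p = 0.000112). Plaur, the urokinase receptor, rose by 0.97 ± 0.07 in day 5 males, 0.62 ± 0.07 in females and 1.64 ± 0.07 in day 3 males. Pla2g4a, the phospholipase whose release of arachidonate annexin A1 restrains, rose by 0.97, 0.88 and 1.44 ± 0.11.

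Fpr2 and Fpr1 encode receptors of annexin A1. Fpr2 rose by 1.24 ± 0.07 in males and 0.83 ± 0.07 in females at day 5, and did not pass the test in day 3 males (−0.06 ± 0.07). Fpr1 rose by 0.79 ± 0.09 in males and 0.67 ± 0.09 in females at day 5. In day 3 males Fpr1 fell, at −1.42 ± 0.09, and its male ratio at day 5 exceeded that at day 3 by 2.21 ± 0.13 (limma adjusted p = 0.0013). In untreated mice Fpr2 was lower in males (−0.69 ± 0.07) and Ahnak, a scaffold that binds the complex of annexin A2 and S100a10, was higher (0.98 ± 0.08). The probes of Ahnak disagreed, and the mean of its probes had the other sign in the 3 adenovirus comparisons.

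The genes of vitamin D and calcium handling, a pathway S100g is known to follow in the gut, came as a list of 16. Of these, 12 were measured, and Cyp24a1, Trpv5, Pvalb and Pgr had no kept probe. In limma 2 rose and 1 fell in males at day 5, none rose and 1 fell in females, and 2 rose and 4 fell in males at day 3. Of all genes 13.9%, 12.8% and 23.7% rose and 4.95%, 6.3% and 20.3% fell in the same order. Nothing is read from these counts of 12 genes. Vdr, the vitamin D receptor, rose by 0.30 ± 0.07 and the calcium pump Atp2b1 by 0.32 ± 0.06 in males at day 5. The day 5 call of Vdr was lost under 5 of 18 other settings, over which its value ran from 0.07 to 1.29. Both genes were also called higher in males at day 3. Those calls were lost under 8 of 18 other settings for Vdr (0.04 to 0.91) and 3 of 19 for Atp2b1 (0.24 to 0.44). Among day 3 males Cyp27a1, a vitamin D hydroxylase that also makes bile acids, fell (−1.09 ± 0.08), as did the receptor partner Rxra (−0.66 ± 0.06) and the hydroxylase Cyp2r1 (−0.65 ± 0.08). The exchanger gene Slc8a1 had −1.05 ± 0.16 at day 3 and −0.88 ± 0.16 at day 5 in males, but its probes disagreed at day 5. Its day 3 value ran from −2.11 to −0.16 over 19 other settings, and that call was lost under 2. In untreated mice Esr1, the oestrogen receptor, was lower in males (−1.11 ± 0.09), and so was Atp2b1 (−0.35 ± 0.06).

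Several of the 10 genes are also made by blood and sinusoidal cells, and markers of those cells moved in the same comparisons. Over all genes 13.9% rose in males at day 5, 12.8% in females and 23.7% in males at day 3. In the same order 4.95%, 6.3% and 20.3% of all genes fell. Of 10 neutrophil markers measured, 8 rose in each adenovirus comparison, and the list's median on the 2 arrays was 1.74 and 1.56 in day 5 males, 1.13 and 1.39 in day 5 females, and 0.98 and 1.20 in day 3 males. Of 14 macrophage markers, 12 rose in males at day 5 and 9 in females, with none lower. Among day 3 males, 7 rose and 6 fell. There Gpnmb had 3.26 and 3.09 and Cd68 1.71 and 1.38, while Clec4f, which marks Kupffer cells, had −1.94 and −2.51 and Vsig4 −1.61 and −2.19. Of 12 markers of stellate cells and fibroblasts, 11 rose in males at day 5, 10 in females and 8 in males at day 3 (1 fell), with medians of 0.88, 0.75 and 1.21.

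Of 11 bile duct markers, 4, 6 and 5 rose in the same order and 1 fell at day 3. Over all genes 13.9%, 12.8% and 23.7% rose, and 20.3% fell at day 3. Endothelial and lymphoid markers rose for 5 of 10 and 5 of 11 in males at day 5, for 5 and 3 in females, and for 3 and 5 in males at day 3, where 2 endothelial markers and 1 lymphoid marker fell. Of 9 measured hepatocyte markers, 3 rose at day 5 in each sex, and 5 fell and none rose in males at day 3. The part of these cell types in the ratios of the 10 genes was not tested. The medians of the 3 adenovirus comparisons were highest in males at day 5 for the neutrophil and macrophage lists, and in males at day 3 for the stellate list and for the 10 genes.

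**Figure D5:**
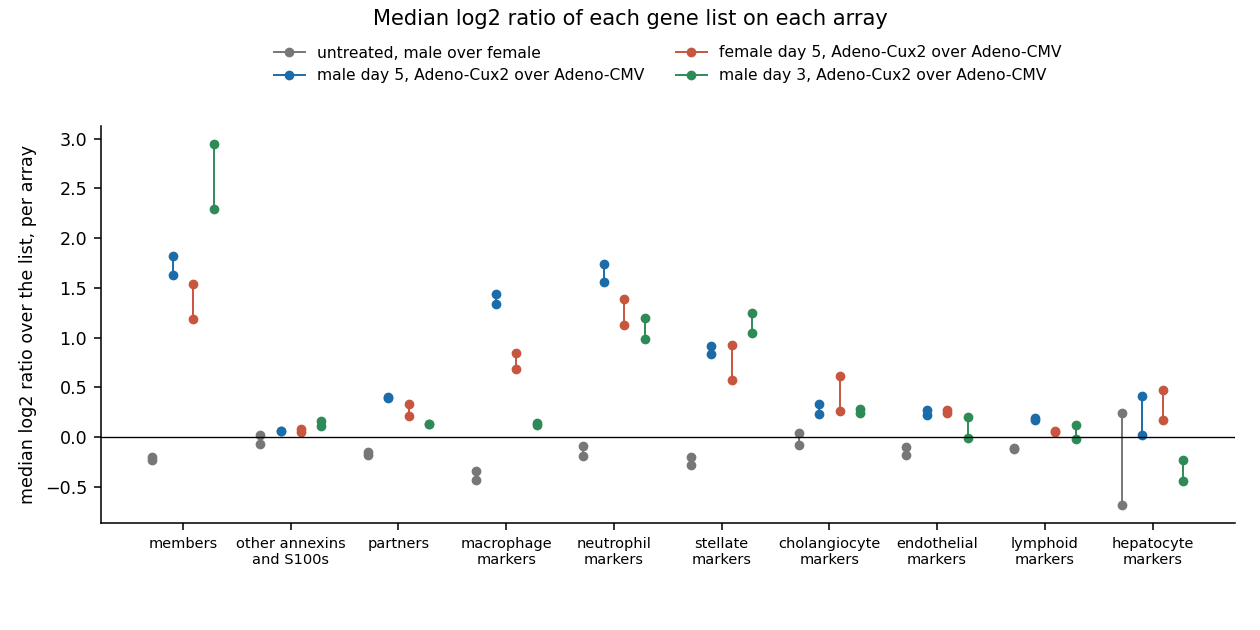
Median log2 ratio over each gene list (y axis) on each array (points, joined within a comparison), for the 10 genes, the other annexin and S100 genes, their partners and marker lists of 7 cell types (x axis). On array 1 of males at day 3 the median of the 10 genes is 2.95, the stellate median 1.05, the neutrophil median 0.98 and the macrophage median 0.14. On array 2 they are 2.29, 1.24, 1.20 and 0.12. The macrophage median is over markers that went both ways. The 10 genes were picked on these comparisons and the marker lists were not, so the gap is a description.

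The 5 genes whose ratios over the 8 arrays lay closest to those of Anxa3, by root mean square distance on the log2 scale, were Ddr1 (0.22), Nid1 (0.24), Pmaip1 (0.28), Myof (0.36) and Lgals3 (0.38). Ddr1, a collagen receptor, had means of 2.26 in males at day 5, 1.63 in females and 3.36 in males at day 3. The 5 closest to S100g lay farther away, from Akr1b7 (0.62) through Tinag (0.69), Csn3 (0.70) and Gpnmb (0.71) to Cd24a (0.74). Csn3, a milk casein, had means of 2.24, 2.46 and 4.22 in the same order, and Akr1b7, an aldo-keto reductase, had 3.11, 2.80 and 3.16. These genes were found by their likeness, so their ratios are a description.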

How the data were processed

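Scanner files came from Agilent Feature Extraction (9.5.3.1 or 10.7.1.1), per the file headers. Each deposited intensity is a raw median or local background signal, and the deposited spot flags are scores of 0 or 1. The deposited log10 ratios (red over green, already processed by that software) also fill the series matrix, with the sign turned on replicate 2. Here the median signals were corrected by normexp (offset 50) and turned into loess-normalized log2 ratios in limma 3.58.1 under R 4.3.3. Probes were kept where they exceeded background clearly on both arrays of a comparison, in either channel (33335 of 41174), and the brightest probe stood for a gene. One limma model over 8 arrays had a coefficient per comparison and a dye term. Tests were 2-sided, with Benjamini-Hochberg adjustment over 22225 genes and calls at an adjusted p under 0.05. On simulated data for males at day 5, with independent normal noise, 66, 67 and 67 genes were changed by 0.5, 1 and 2 (log2). The model recovered 45.5%, 92.5% and 95.5% of them, with 5 false calls among the unchanged genes of 22210. In the data 18.8% of genes were called in that comparison, far more than were changed here. The simulated shares therefore need not hold for the data. Named are the 10 genes, the 4 largest called per list and comparison and the 5 closest to Anxa3 and S100g; others were chosen after their values were seen. Some genes of the lists are not reported here. The genes and lists were chosen with earlier results of these data known. Alternatives covered background, normalization, filters, probes, the dye term and each array left out.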

Additional observations from a re-analysis of the deposited data

Results flagged for a closer look

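A test of the difference between responses singled out S100a8 in females against males at day 5 (−1.44, limma adjusted p = 0.0492). That call was lost under 11 of 18 other settings. The same kind of test of day 5 against day 3 in males was read for 16 other annexin and S100 genes, 16 partners and 12 vitamin D genes. Of all genes 8.11% were called higher at day 5 and 4.83% lower. Among the list genes it singled out 12, here given as day 5 minus day 3 on the log2 scale with limma. They were S100a8 (1.69), S100a9 (1.49), Dysf (0.43), Sri (−0.45), Myh9 (−0.44), Fpr1 (2.21), Fpr2 (1.30), Plg (0.85), Plaur (−0.67), Rxra (0.61), Cyp2r1 (0.54) and Cyp27a1 (0.91), with adjusted p from 0.0013 for Fpr1 to 0.0482 for Sri. Each call of day 5 against day 3 was tried under 18 other settings. It was lost under 11 for Sri, 9 for Cyp2r1, 8 for Dysf, 8 for Myh9, 5 for Rxra, 4 for Plaur and 3 for Cyp27a1. Plg lost this call under 2, S100a9 and Fpr2 under 1 each, and S100a8 and Fpr1 under none. Among them the calprotectin genes and the formyl peptide receptors had the larger male ratio at day 5, and Plaur at day 3. Dysf encodes dysferlin, a membrane repair protein, and Sri encodes sorcin, a calcium sensor. The Anxa7 probe used had both male arrays of day 5 above 0 and both of day 3 below 0, a difference of 0.19 that was not tested. The second Anxa7 probe was above 0 on all 4 of these arrays, so no direction is given. The day 5 and day 3 arrays were on different slides, so slide and time cannot be told apart.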

How the results depend on the processing

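Under 19 other settings, the log2 ratios of the 10 genes after Adeno-Cux2 kept their sign, except for Anxa7, which changed sign under 1 in males at day 5 and under 3 in males at day 3. S100g was not in the set kept by the filter for probes well above background in both channels on all arrays. Its ratio ran from 1.96 to 3.00 in males at day 5, 2.20 to 3.25 in females and 3.47 to 4.38 in males at day 3. The median of the 10 genes in males at day 5 was 1.45 without background subtraction. In untreated mice the count of called members was 0 with no background step, with the deposited LogRatio values and with median centring. It was also 0 with a dye term for each slide, an intensity trend, the mean of all probes or the comparison's own arrays. Leaving out 1 array also changed it. The other annexin and S100 genes called in untreated mice numbered 2 with an offset of 16, the software's log ratios, median centring or the comparison's own arrays, and 0 to 4 with 1 array left out. In females at day 5 they numbered 3 with the software's log ratios or the comparison's own arrays, and 2 to 5 with 1 array left out. In males at day 5 they numbered 2 to 7 with 1 array left out. The female minus male call at day 5 became 0 with no background step, an offset of 16 or the deposited LogRatio values, and 0 to 1 with 1 array left out. With no replicate block, that is without the dye term, the count of that difference was 0. The replicate numbers mark the dye, and deviations of same-numbered arrays correlated at −0.09 to 0.30 over 6 pairs. With the software's log ratios Anxa10 and S100a5 in males at day 3 turned to 1.38 and 0.48. With the mean of all probes Ahnak turned to 0.44, 0.39 and 0.97 and Slc8a1 in males at day 5 to 0.022. The cause was not tested. The number of arrays, 2 per comparison, limits the precision, with a median standard error of 0.0784.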
